A study of Gallus gallus with 18 samples.

Results

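The enzymes described here oxidise, hydrolyse or conjugate drugs, toxins, steroids and reactive lipids. They are 10 genes of 17108 in the count table, found by looking up 10 listed gene symbols in the symbol lists that the study published, a list of feeding differences and a list of tissue-specific genes. 9 of the 10 symbols were found, and CYP1A4 was not and was dropped as a symbol. RefSeq gives CYP1A4 as a synonym of the gene called CYP1A1 below, so values for it stand under that name. The symbol CYP1A1 was paired with 2 identifiers, and both were kept: ENSGALG00000001325, called CYP1A1 below, and ENSGALG00000001320, called CYP1A2 below after its name in the list of feeding differences. A different identifier under the symbol CYP1A2, ENSGALG00000004050, is not a member. It is counted among the other P450 genes below, and its values are not those given for CYP1A2. The others are CYP2C45 (ENSGALG00000005469), CYP1C1 (ENSGALG00000004501), CYP3A7 (ENSGALG00000004449), CYP2H1 (ENSGALG00000005795), GSTA4 (ENSGALG00000016324), GSTA3 (ENSGALG00000016325), EPHX1L (ENSGALG00000010303) and ALDH1A3 (ENSGALG00000007129). The members were chosen by measured values: CYP2C45, CYP1C1, CYP3A7, GSTA4, EPHX1L and ALDH1A3 as genes that differed between feeding groups in adipose tissue and GSTA3 as such a gene in ovary, from these same libraries. The feeding contrasts in adipose tissue and ovary are therefore described without a test of single members, and the liver, which did not choose them, was tested.

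RNA was sequenced from abdominal fat (adipose), liver and ovary of 6 Arbor Acres broiler breeder hens at 30 wk of age. Both groups were reared to a target body weight and moved to individual laying cages from 22 wk, when 3 hens were given feed ad libitum and 3 hens stayed on the restricted allowance of the breeder guide. Each hen gave 1 library of each tissue, so there were 3 libraries of each feeding group in each tissue, and a library is named by F for adipose, G for liver or M for ovary and the number of its hen. The ad libitum hens gave F1721, F1723 and F1725 and the G and M libraries with the same numbers, and the restricted hens gave F1724, F6709 and F6710 and theirs. Laying hens have an estrogen-driven liver that makes egg yolk proteins, and by the study's methods the ovary sample was stroma with its small follicles.

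Detoxification is usually drawn as a sequence. Cytochrome P450 enzymes first insert oxygen, epoxide hydrolases and aldehyde dehydrogenases act on the reactive products, and glutathione transferases, glucuronosyltransferases and sulfotransferases attach a soluble group so that ABC transporters can export the product. In birds as in mammals the liver is the main site, drug-inducible P450 genes of the CYP2 and CYP3 families respond there to nuclear receptors, and CYP1 family genes respond to the aryl hydrocarbon receptor AHR.

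The 18 libraries held 14793554 to 23261748 counts, and levels are given as CPM, the share of a library's counts in the usual per-million unit, after TMM scaling within a tissue, so that they can be compared between libraries for a gene but not between genes, whose lengths differ. A level of 3 counts corresponded to 0.129 to 0.203 CPM. Markers of the labelled tissues were present in them: 5 fat cell markers summed to 12370 to 31211 CPM in adipose, 10 liver cell markers to 326544 to 512904 CPM in liver and 7 ovary markers to 1134 to 2300 CPM in ovary, among which the inhibin gene INHA was at 0 in M6710. Library F6709 stood apart, since 11 airway and lung epithelium markers summed to 1474 CPM there and to 14.2 to 48.7 CPM in the other 5 adipose libraries, and each of the 11 was highest in F6709. The same list summed to 1637 to 2437 CPM in liver, most of it PIGR, and was read in adipose alone. Library M1723 also stood apart, with 6209 CPM over 4 adrenal gland markers against 122 to 376 CPM in the other 5 ovary libraries. The airway and adrenal lists were written after the study's list of feeding differences had been read. That F6709 and M1723 stood apart on them is therefore a description and not an independent result. Liver cell markers were found at 28.4 to 1389 CPM in adipose, highest in F6710, and at 62.3 to 1072 CPM in ovary, highest in M1721. In samples of whole tissue, fewer cells of a type and less RNA per cell cannot be told apart.

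**Figure D1:**
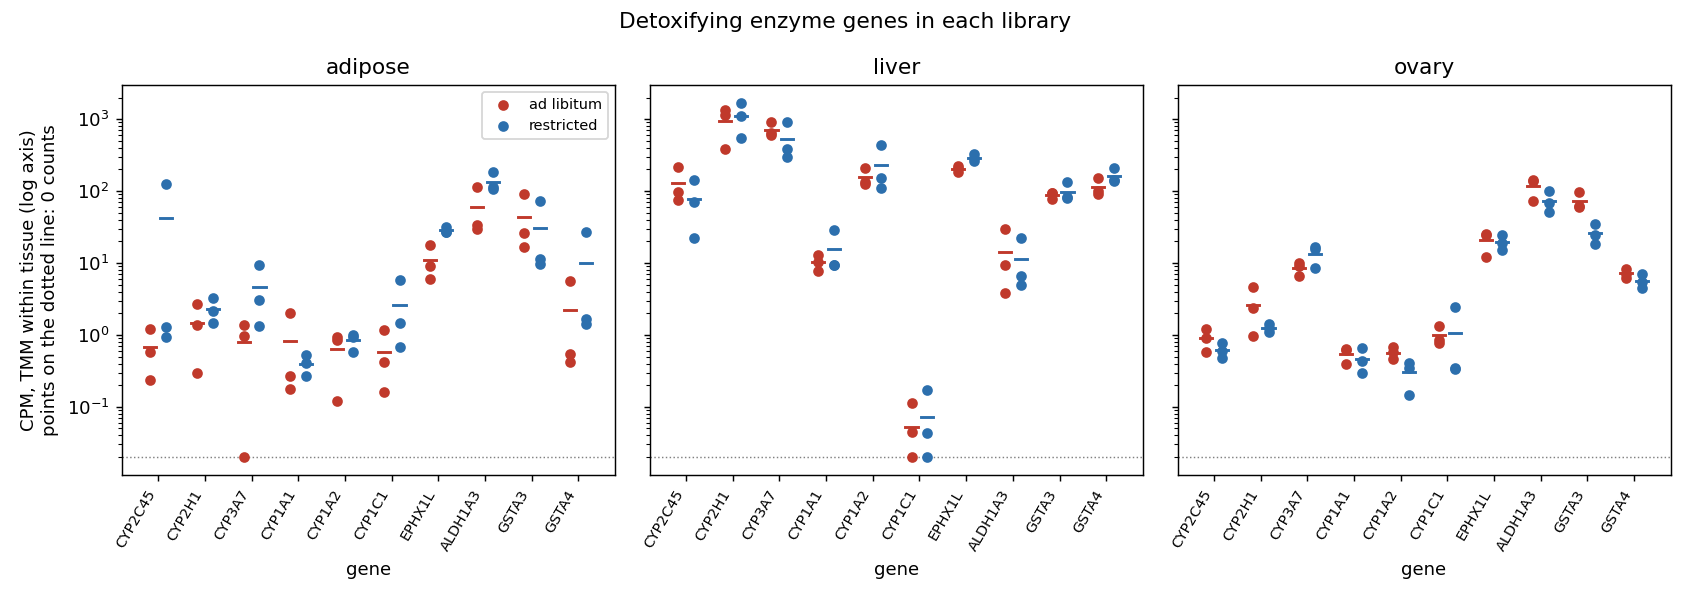
Level of each enzyme gene in CPM (log axis, TMM scaling within the tissue) in the 3 ad libitum and 3 restricted libraries of each tissue. Points are libraries, short lines are group means, and points on the dotted line had 0 counts. CYP2C45 reached 124 CPM in a single restricted adipose library and GSTA3 separated the feeding groups in ovary.

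In abdominal fat, the 6 P450 genes were at 3.22 CPM or less outside F6709, and 3 of them, CYP2C45, CYP1C1 and CYP3A7, were highest in F6709. CYP2C45, a chicken CYP2C enzyme inducible by drugs, was measured at 0.584, 0.240 and 1.20 CPM in F1721, F1723 and F1725, and at 0.944, 124 and 1.28 CPM in F1724, F6709 and F6710. The groups overlapped, and F6709 was 97.5 times the next library. With ad libitum feeding relative to restricted feeding the log2 fold change was -5.94 (SE 1.93, n = 3 hens per group), and it was -0.65 without F6709. This gene did not pass the filter of more than 1 CPM in every library of a feeding group, so its value comes from a fit with no filter. The airway and lung epithelium markers of F6709 stand beside this value, and their part in it was not tested. Among them the surfactant protein gene SFTPA was at 406 CPM in F6709 and at most at 7.44 CPM in the other adipose libraries, and the cilium gene DNAH9 was at 96.1 CPM against at most 2.77 CPM, both scaled by library size alone.

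**Figure D2:**
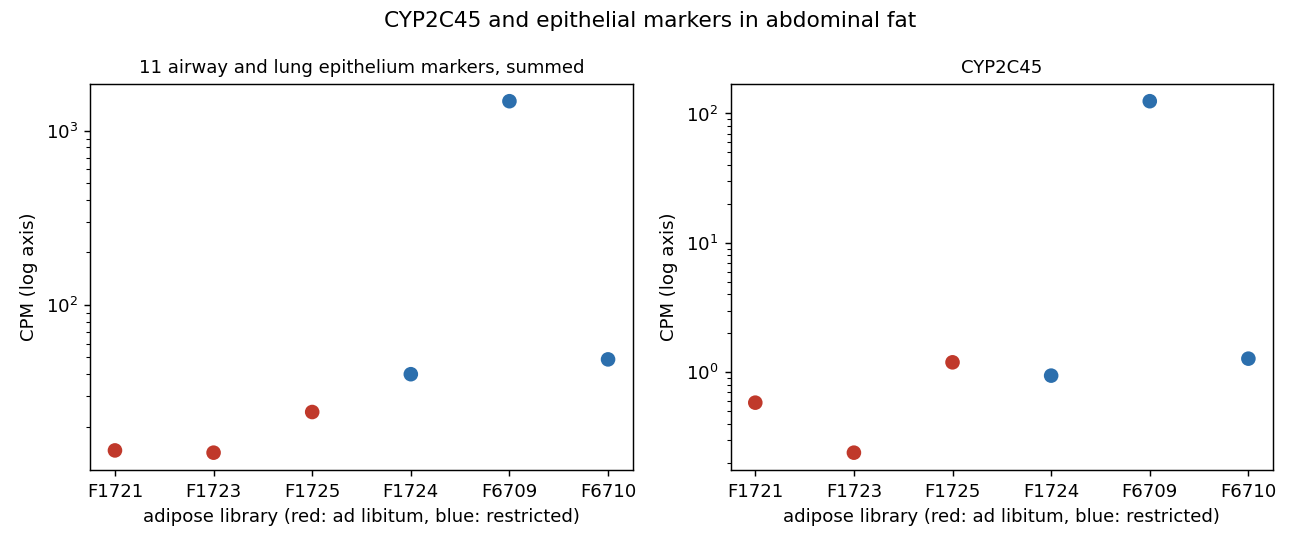
Summed level of 11 airway and lung epithelium markers (left) and level of CYP2C45 (right) in each adipose library, in CPM on log axes, red for ad libitum and blue for restricted hens. F6709 was the highest library on both measures, at 1474 and 124 CPM.

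The genes whose adipose profile over the 6 libraries was most like that of CYP2C45, among 5293 genes with a symbol and by the root mean square difference of centred log2 values, were CDH1, at 0.42, EVPL, at 0.55, INCENP, at 0.64, LYG2, at 0.71, and OVSTL, at 0.72. All 5 were highest in F6709, as matching to a profile with that peak favours. CDH1, the epithelial cadherin, was at 64.5 CPM in F6709 and at 1.34 CPM in the next library, and it is also 1 of the 11 airway and lung epithelium markers.

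CYP1C1, a CYP1 family enzyme known in fish and birds, was also highest in F6709. It was measured at 1.17, 0.420 and 0.163 CPM in the ad libitum hens F1721, F1723 and F1725 and at 1.48, 5.73 and 0.672 CPM in the restricted hens F1724, F6709 and F6710. The groups overlapped, and the log2 fold change, again from a fit with no filter, was -2.12 (SE 0.97) with all hens and -0.79 without F6709. CYP3A7, the drug-inducible chicken CYP3A gene, had 1.39, 0 and 0.978 CPM in the ad libitum hens and 1.35, 9.41 and 3.02 CPM in the restricted hens, in the same order. Its groups overlapped by the narrow margin between F1721 and F1724. The log2 fold change was -2.51 (SE 1.09) with all hens and -1.40 without F6709.

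GSTA4, an alpha-class glutathione transferase that in mammals conjugates lipid peroxidation aldehydes, was at 5.70, 0.420 and 0.544 CPM in F1721, F1723 and F1725, and at 1.69, 26.6 and 1.41 CPM in F1724, F6709 and F6710. A single library was high in each group. The log2 fold change of -2.14 (SE 1.40) turned to 0.56 without F6709. The genes with the most similar adipose profile were EXFABP, at 0.23, LOC100858439, at 0.32, KRT14, at 0.37, SERPINB2, at 0.44, and KLF5, at 0.50, as root mean square log2 differences. They were all highest in F6709, which the matching again favours.

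EPHX1L, a gene of the microsomal epoxide hydrolase kind, which turns epoxides into diols, separated the groups in adipose tissue, and its highest library was F1724. Its level was 17.6, 5.99 and 9.02 CPM in the ad libitum hens and 31.9, 26.8 and 26.7 CPM in the restricted hens. Every restricted library was above every ad libitum library, and the log2 fold change was -1.39 (SE 0.39), or 2.61-fold lower with ad libitum feeding. It lay between -1.92 and -1.10 when each hen was left out in turn, and it was -1.41 without F6709.

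ALDH1A3, which makes retinoic acid from retinal, was at 115, 30.1 and 33.4 CPM in F1721, F1723 and F1725 and at 107, 184 and 113 CPM in F1724, F6709 and F6710. The library F1721 lay among the restricted libraries, so the groups overlapped. The log2 fold change was -1.18 (SE 0.54), and -0.86 without F6709.

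The remaining members gave no separation in fat. GSTA3, the second alpha-class transferase, ranged from 9.57 CPM in F1724 to 89.9 CPM in F1721, with a log2 fold change of 0.50 (SE 0.91) that became -0.55 without F1721 and 2.098 without F6709. CYP2H1, the classical phenobarbital-inducible P450 gene of chicken, had a log2 fold change of -0.63 (SE 0.70) over a range of 0.300 to 3.22 CPM. CYP1A1 reached 2.04 CPM in F1723 and at most 0.526 CPM elsewhere, and CYP1A2 lay between 0.120 and 1.01 CPM.

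In adipose tissue 6 of the 10 members passed the filter. At a false discovery rate (FDR) under 0.1 by edgeR's quasi-likelihood test, 0 of those 6 were called, where 0.00839% of the 11914 genes tested were called. DESeq2 called EPHX1L, among 78 genes called, and the likelihood ratio test called 0 of the members, among 88 genes called. Only EPHX1L, 1 of the 6, had groups that did not overlap, against 8.77% of all tested genes, 5.19% of which had an unadjusted p under 0.05. The median log2 fold change of the 6 was -1.28, and that of all tested genes 0.01. These counts come from the contrast that chose 6 of the members, so nothing is read from them. CYP3A7, GSTA4 and CYP2H1 passed the filter through their restricted libraries alone, where their means were higher. The median of the 6 is therefore a description. F6709 was the highest adipose library for 5 of the 10 members and for 18.6% of all tested genes, and F1723 was the lowest for 7 of the 10.

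**Figure D3:**
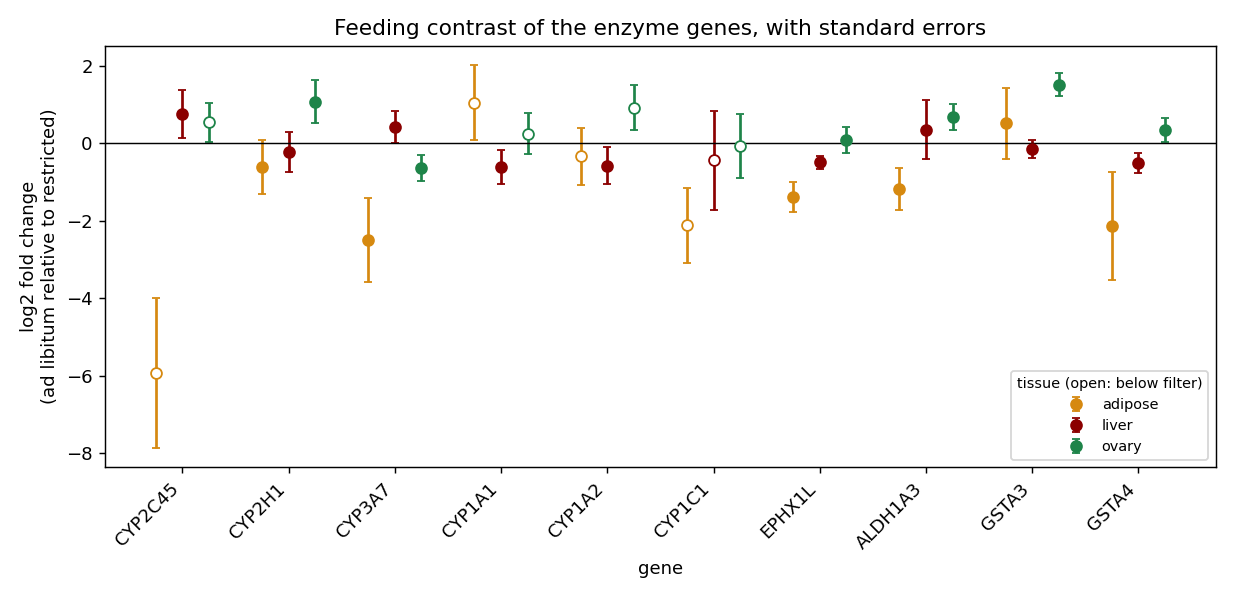
Log2 fold change of ad libitum relative to restricted feeding for each enzyme gene in adipose, liver and ovary, with bars of 1 standard error (3 hens per group). Open points are genes that did not pass the filter, taken from a fit with no filter. The adipose point of CYP2C45 lies at -5.94 and the ovary point of GSTA3 at 1.50.

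In liver, 9 of the 10 members passed the filter, and none of the 9 was called between feeding groups by edgeR's quasi-likelihood test, its likelihood ratio test or DESeq2. By the quasi-likelihood test 1 of 10339 genes was called in this tissue (0.00967%), while 13.7% had an unadjusted p under 0.05, as had 1 of the 9 members, EPHX1L. The median log2 fold change of the 9 members was -0.23 and that of all tested genes was -0.00440. The drug-inducible P450 genes varied several-fold between hens of the same group. CYP2H1 was at 389.8, 1340.4 and 1129 CPM in G1721, G1723 and G1725 and at 554, 1102 and 1697 CPM in G1724, G6709 and G6710, a log2 fold change of -0.23 (SE 0.51, FDR = 0.847 by edgeR's quasi-likelihood test). CYP2C45 was at 219, 97.8 and 74.6 CPM in the ad libitum hens and at 69.4, 141 and 22.3 CPM in the restricted hens, 0.75 on the log2 scale (SE 0.62, FDR = 0.572). The library lowest for CYP2C45, G6710, was the highest for CYP2H1, and both genes overlapped between groups.

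CYP3A7 was at 637, 917 and 593 CPM in the ad libitum livers and at 293.5, 926 and 383 CPM in the restricted livers, with overlapping groups and a log2 fold change of 0.42 (SE 0.42, FDR = 0.636 by edgeR). CYP1A1 and CYP1A2, which in birds and mammals answer to AHR ligands and are neighbours in the RefSeq annotation, had the same highest library. CYP1A2 was at 134, 124 and 208 CPM in G1721, G1723 and G1725, and at 153, 112 and 433 CPM in G1724, G6709 and G6710. CYP1A1 was at 10.4, 7.76 and 12.7 CPM in the ad libitum livers and at 9.36, 9.44 and 28.6 CPM in the restricted livers. G6710 was 2.09 times the next library for CYP1A2 and 2.25 times the next for CYP1A1. The log2 fold changes of -0.59 (SE 0.48, FDR = 0.567) and -0.62 (SE 0.44, FDR = 0.518) became 0.23 and 0.13 without G6710. How reads were shared between such neighbouring, similar genes was not given in the sources used here, so the split between CYP1A1 and CYP1A2, and between GSTA3 and GSTA4, is uncertain.

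The hydrolase and the transferases were steadier in liver. EPHX1L was at 206, 186 and 223 CPM in G1721, G1723 and G1725, and at 288, 259 and 324 CPM in G1724, G6709 and G6710. Every ad libitum liver was below every restricted liver, as in fat. The means were 205 CPM ± 18.3 and 290.3 CPM ± 32.1 (SD, n = 3), and the log2 fold change was -0.50 (SE 0.18, unadjusted p = 0.0213, FDR = 0.335 by edgeR's quasi-likelihood test). It did not pass the threshold by DESeq2 (FDR = 0.181) or by edgeR's likelihood ratio test (FDR = 0.315). Groups did not overlap for 1 of the 9 members and for 21.2% of all genes tested in liver. With 9 members nothing is read from the difference between these shares.

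GSTA4 was at 90.1, 151 and 102 CPM in the ad libitum livers and at 209, 142 and 138 CPM in the restricted livers, -0.51 on the log2 scale (SE 0.26, FDR = 0.403 by edgeR). GSTA3 was at 94.3, 92.7 and 78.2 CPM in the ad libitum livers and at 134, 79.2 and 82.8 CPM in the restricted livers, -0.16 on the log2 scale (SE 0.24, FDR = 0.764). Both transferases were highest in G1724, and both overlapped between groups. ALDH1A3 ranged from 3.89 CPM in G1725 to 29.6 CPM in G1723 within the ad libitum group, with a log2 fold change of 0.35 (SE 0.76, FDR = 0.848). CYP1C1 had 3 or fewer counts in 5 of the 6 liver libraries and was near the limit of detection.

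In ovary, GSTA3 was the single member above the filter whose groups did not overlap. It was at 62.5, 60.4 and 96.4 CPM in M1721, M1723 and M1725, and at 24.2, 34.6 and 18.5 CPM in M1724, M6709 and M6710. Every ad libitum ovary was above every restricted ovary, with means of 73.1 CPM ± 20.2 and 25.8 CPM ± 8.17 (SD, n = 3). The log2 fold change was 1.50 (SE 0.30), or 2.84-fold higher with ad libitum feeding, between 1.24 and 1.78 when each hen was left out, and 1.61 without M1723, the library with the adrenal gland markers. GSTA3 was chosen for this contrast, and its value is a description.

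Macrophage markers moved with GSTA3. The summed level of SPI1, CTSS, CYBB and MPEG1 was 375, 435 and 697 CPM in M1721, M1723 and M1725 and 191, 273 and 80.7 CPM in M1724, M6709 and M6710. These sums also separated the feeding groups, all 4 markers were highest in M1725 and lowest in M6710, and 4 of the 6 ovary libraries had the same rank for GSTA3 and for the sum. The study itself reported CTSS and CYBB as higher with ad libitum feeding in these ovaries, and SPI1 among its ovary feeding differences. GSTA3 was chosen for the same contrast, so the shared separation and rank in ovary are a description. In adipose tissue, where neither separated the feeding groups, the rank for the sum was the same in 6 of 6 libraries. It ran from F1721, at 89.9 CPM of GSTA3 and 1067 CPM of the markers, to F1724, at 9.57 and 349 CPM. SPI1, CTSS and MPEG1 had those ends there, while CYBB was highest in F6709, at 42.4 CPM, and lowest in F6710, at 5.02 CPM, scaled by library size alone. In liver the rank was the same in 2 of 6, and GSTA3 was highest in G1724, which was not the highest for the markers. The part of macrophage content in the GSTA3 values was not tested.

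**Figure D4:**
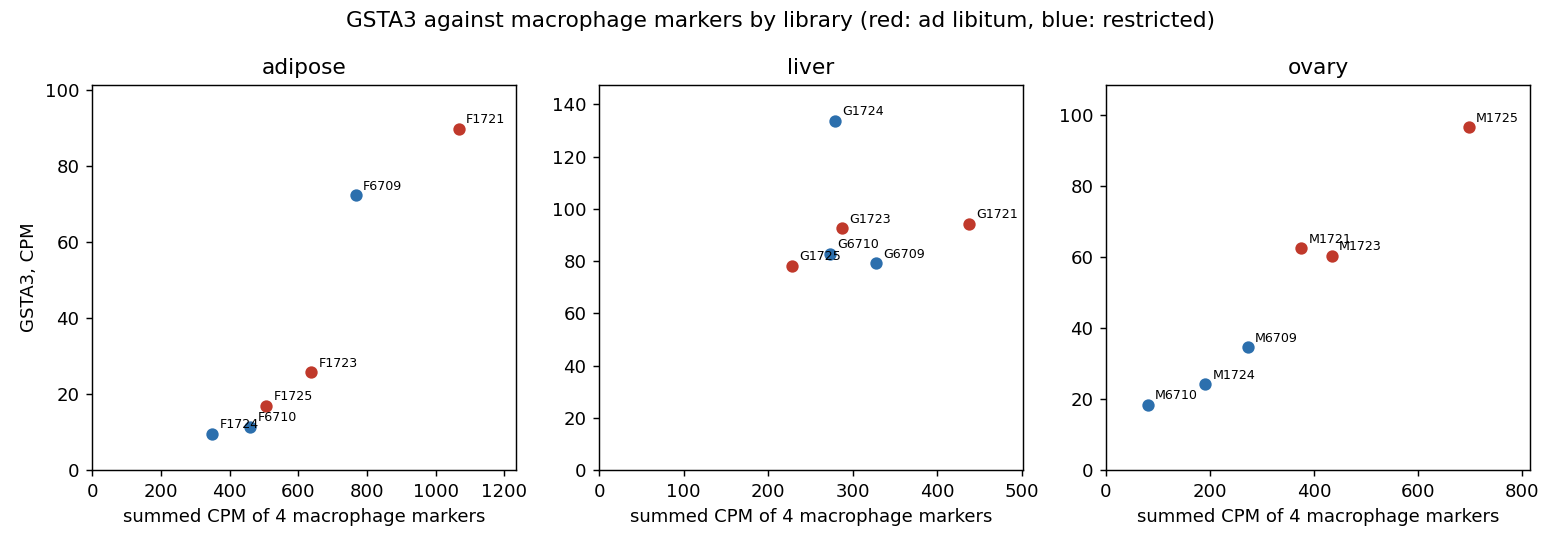
GSTA3 (vertical axis, CPM) against the summed level of 4 macrophage markers (horizontal axis, CPM) in each library of adipose, liver and ovary, red for ad libitum and blue for restricted hens. The order of libraries was the same on both axes in 6 of 6 adipose and 4 of 6 ovary libraries, and in 2 of 6 liver libraries.

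By profile over the 6 ovary libraries, the genes most like GSTA3 among 5575 with a symbol were CHIR-IG1-5, at a root mean square log2 difference of 0.15, CXCR4, at 0.16, TM4SF19, at 0.20, LGMN, at 0.20, and GPR34, at 0.21. All 5 were highest in M1725, the highest library of GSTA3, as matching to its profile favours. CXCR4, the chemokine receptor, was at 57.3 CPM there, and LGMN, the lysosomal protease legumain, was at 481 CPM.

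GSTA4, the other alpha-class gene, did not follow GSTA3 in ovary. It was at 7.09, 8.32 and 6.21 CPM in the ad libitum hens and at 7.13, 4.47 and 5.52 CPM in the restricted hens, with overlapping groups and a log2 fold change of 0.34 (SE 0.30). EPHX1L, at 24.2, 25.3 and 12.3 CPM in M1721, M1723 and M1725 and at 15.3, 24.2 and 18.7 CPM in M1724, M6709 and M6710, overlapped fully, and its log2 fold change of 0.09 (SE 0.33) took both signs when hens were left out. ALDH1A3 was at 72.6, 137 and 144 CPM in the ad libitum ovaries and at 68.9, 101 and 50.6 CPM in the restricted ovaries, 0.68 on the log2 scale (SE 0.34). Its 2 highest libraries were both from ad libitum hens, and the groups overlapped.

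CYP3A7 was at 10.01, 9.13 and 6.61 CPM in the ad libitum ovaries and at 8.49, 15.5 and 16.5 CPM in the restricted ovaries, a log2 fold change of -0.65 (SE 0.34) with overlapping groups. CYP2H1 was highest in M1721, at 4.57 CPM, the ovary library with the most liver cell markers, and its log2 fold change was 1.07 (SE 0.56). CYP2C45, CYP1C1, CYP1A1 and CYP1A2 did not pass the filter and were at 2.48 CPM or less in every ovary library. CYP1A2 did not overlap between groups, at 0.457 to 0.680 CPM against 0.144 to 0.413 CPM, which were counts of 14 or fewer. Of the 6 members tested in ovary 0 were called by the quasi-likelihood test, which called 0% of 12871 genes and gave 4.85% of them an unadjusted p under 0.05. DESeq2 called 48 genes and the likelihood ratio test 24, and GSTA3 was the member called by both. Nothing is read from the members' calls by any tool in this contrast, which chose GSTA3. Groups did not overlap for 1 of the 6 members tested, GSTA3, and for 9.52% of all tested genes.

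Whether a feeding contrast differed between tissues was tested in a fit over all 18 libraries. 0 of 13426 genes passed FDR under 0.1 in any of the 3 pairs of tissues by edgeR's quasi-likelihood test, with or without the hen as a block, and 5.41% (adipose against liver), 5.33% (ovary against liver) and 5.45% (adipose against ovary) had an unadjusted p under 0.05 without the block. None of the 9 members tested passed. The different signs of a gene in different tissues are therefore given as values and not as a difference between tissues.

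Between tissues, liver held the highest level of most of these genes. The levels in this comparison come from TMM scaling over all 18 libraries, so they differ from those above. Of 9 members in the fit, CYP1C1 being below the filter, CYP2C45, CYP1A1 and CYP1A2 passed through their liver libraries alone, and CYP2H1 and CYP1A2 were found through the study's list of tissue-specific genes, so for these 4 the liver excess is a description with no test. The other 5 passed the filter in every tissue. Among them CYP3A7, GSTA4, GSTA3 and EPHX1L were lower in adipose than in liver and lower in ovary than in liver at FDR under 0.1, where 33.4% and 35.9% of 13426 genes were lower. CYP2H1 averaged 2177 CPM ± 1029 in liver, 1.53 CPM ± 0.854 in adipose and 1.13 CPM ± 0.795 in ovary (SD, n = 6 hens).

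CYP3A7 averaged 1314 CPM ± 554 in liver, 2.19 CPM ± 2.77 in adipose and 6.44 CPM ± 2.50 in ovary. Its log2 differences from liver were -9.66 (SE 0.68, FDR = 2.8e-09) for adipose and -7.70 (SE 0.62, FDR = 1.2e-08) for ovary by edgeR's quasi-likelihood test. EPHX1L averaged 521 CPM ± 109.7 in liver, 16.0 CPM ± 8.52 in adipose and 11.6 CPM ± 3.09 in ovary, differences of -5.15 (SE 0.27) and -5.47 (SE 0.28) on the log2 scale. The transferase GSTA3 had the smallest liver excess of these 4, with 196 CPM ± 42.7 in liver, 30.8 CPM ± 28.4 in adipose and 28.4 CPM ± 16.5 in ovary, -2.69 (SE 0.49, FDR = 0.00012) and -2.96 (SE 0.49, FDR = 4.2e-05). GSTA4 differed from liver by -6.19 (SE 0.75) in adipose and by -6.27 (SE 0.75) in ovary.

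CYP1C1, which was outside the fit, was also low in liver. It was at 0 to 0.355 CPM there, 0.136 to 4.63 CPM in adipose and 0.198 to 1.43 CPM in ovary, with overlapping ranges. Among the members in the fit, only ALDH1A3 had the opposite order. ALDH1A3 averaged 26.7 CPM ± 22.1 in liver, 79.1 CPM ± 46.7 in adipose and 55.1 CPM ± 20.9 in ovary. It was 1.46 higher on the log2 scale in adipose than in liver (SE 0.49, FDR = 0.013) and 1.02 higher in ovary than in liver (SE 0.48, FDR = 0.064 by edgeR's quasi-likelihood test). The ranges met in both pairs, since the liver libraries reached 61.9 CPM and the lowest adipose library was at 24.3 CPM. Scaling matters for this size of difference: with library size alone the median over all genes was 1.52 for adipose against liver and 2.01 for ovary against liver, where TMM gave 0.16 for both. With that scaling ALDH1A3 was 2.83 and 2.88 higher, and the 8 other members stayed lower, than in liver.

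Between adipose and ovary, where 72.9% of 13426 genes were called, CYP3A7 was lower in adipose (log2 difference -1.97, SE 0.52, FDR = 0.0031 by edgeR's quasi-likelihood test). CYP2C45 and CYP1A2, which passed the filter in neither tissue, are given as values: the log2 difference of CYP2C45 was 3.32 (SE 1.07) with all libraries and 0.69 (SE 0.56) without F6709, and that of CYP1A2 was 1.31 (SE 0.48), from 19 counts or fewer in every library of both tissues. GSTA4, at 0.08 with all libraries, was lower in adipose without F6709, at -1.27 (SE 0.48, FDR = 0.028). Against liver, adipose was called again without F6709 for CYP3A7, GSTA4, GSTA3, EPHX1L and ALDH1A3.

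Because both other tissues held some liver cell markers, each enzyme gene was also read against them in the same library. Per 1000 counts of the 10 liver cell markers, CYP2H1 had 1.07 to 5.15 counts in liver, 2.32 to 10.5 in adipose and 4.26 to 17.7 in ovary, and 5 of the 6 adipose and 2 of the 6 ovary libraries lay within the liver range. In adipose 4 of 6 libraries had the same rank for CYP2H1 and for the liver cell markers, from F6710, the highest on both, to F1723, the lowest on both. For CYP1A2 the ratio was 0.298 to 1.32 in liver, with 1 of 6 adipose and 2 of 6 ovary libraries in that range and the others above it. For CYP3A7, 2 of 6 adipose libraries lay in the liver range of 0.899 to 2.47, and all 6 ovary libraries lay above it, at 9.34 to 248.

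For the other 7 members every adipose and every ovary library was above the liver range. The median ratio in adipose was 12.7 times the liver median for CYP2C45, 62.4 times for EPHX1L, 488 times for GSTA3 and 8105 times for ALDH1A3. The markers had 7608365 to 9104785 counts in liver libraries and 474 to 20682 in adipose libraries. A gene less confined to liver than these markers therefore lies above the liver range. The multiples are not levels, since EPHX1L and GSTA3 were lower in adipose than in liver. The source of the liver cell markers was not tested.

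**Figure D5:**
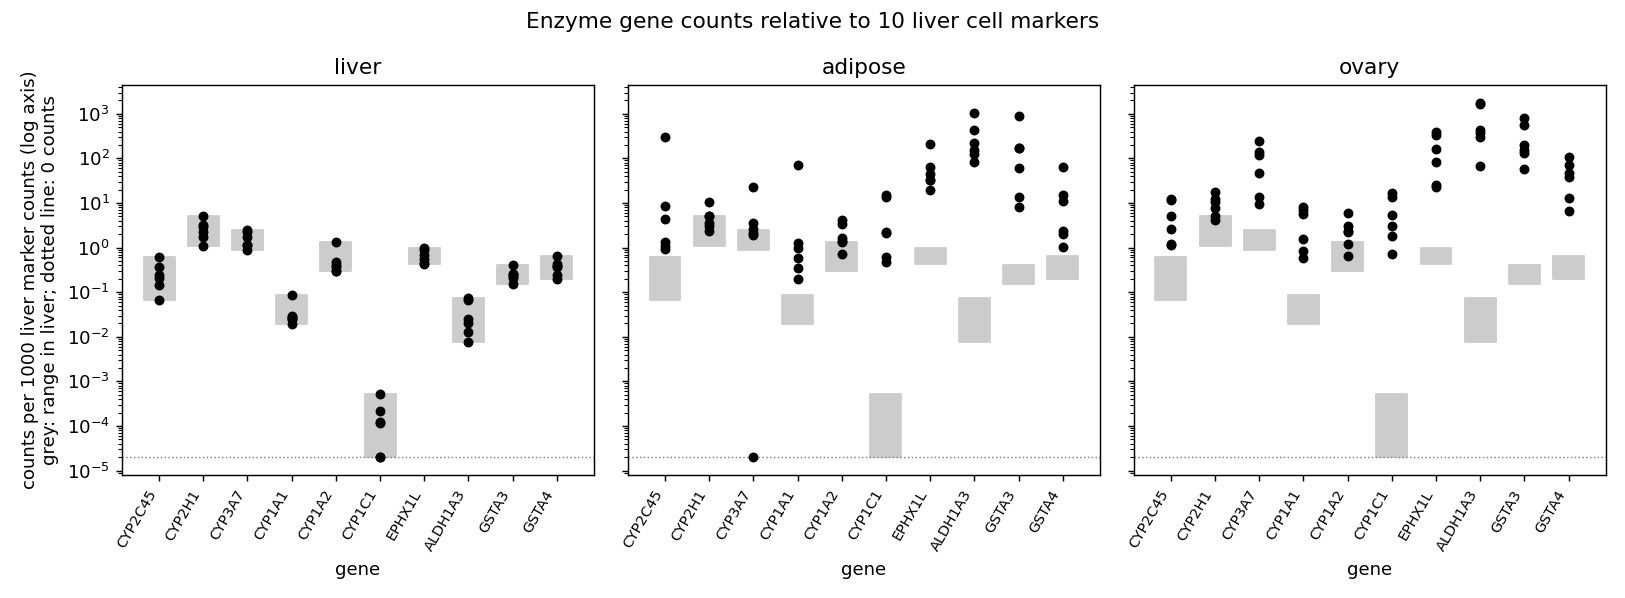
Counts of each enzyme gene per 1000 counts of 10 liver cell markers in the same library (log axis), for the 6 libraries of liver, adipose and ovary. Grey boxes repeat the range in liver and points on the dotted line had 0 counts. CYP2H1 overlapped the liver range in 5 of 6 adipose libraries, while ALDH1A3, GSTA3 and EPHX1L lay above it throughout.

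Other genes of the same chemistry were read from 7 lists with 63 genes, covering other P450 genes, sterol P450 genes, other oxidation enzymes, glutathione transfer, other conjugation, efflux and regulators. None was called in any tissue by the quasi-likelihood test, of 56 tested in adipose, 59 in liver and 55 in ovary. DESeq2 called 3 of them, all in liver, and the likelihood ratio test called UGT1A1 in adipose and GSTT1L in liver. UGT1A1 passed the adipose filter through its restricted libraries alone, where it was higher, so nothing is read from that call. The lists can hold only genes with a symbol, and symbols come mostly from lists that the study ranked by difference, so the background for them is genes with a symbol, of which 9.45% in adipose, 23.9% in liver and 8.49% in ovary had an unadjusted p under 0.05. Shares of positive values and medians below are set beside all tested genes instead. The direction among genes with a symbol was not counted, so no shift of a list is read from them.

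In liver 18 of 59 had an unadjusted p under 0.05, 12 lower and 6 higher with ad libitum feeding, and the median log2 fold change over the 59 was -0.15. The glutathione transfer list also holds the glutathione synthesis genes GCLC and GSS and the peroxidase gene GPX1. Of its 9 genes 8 had a negative value, GSS and GPX1 among them, with a median of -0.40. Efflux genes had 4 of 5 positive with a median of 0.57. These lists are named for the lowest and highest liver medians of the 7. Other conjugation had 5 of 7 negative (median -0.39) and other oxidation 13 of 19 (-0.34). Regulators had 5 of 7 positive (0.26), other P450 genes 5 of 8 (0.07) and sterol P450 genes 2 of 4 (-0.21). Of all genes tested in liver, with or without a symbol, 49.6% were positive, and their median was -0.00440. Efflux genes were also mostly positive in adipose (4 of 5, median 0.35) and ovary (4 of 4, 0.39). ABCC2, positive in adipose, passed the filter there through its ad libitum libraries alone, where its mean was higher. Efflux was not alone in this: regulators were positive for 6 of 7 in adipose. Other conjugation was positive for 4 of 5 in ovary, UGT2A1 among them. Glutathione transfer genes were negative for 5 of 9 in adipose and 4 of 9 in ovary. Of the 8 negative genes of the glutathione transfer list 6 were highest in G1724, the highest liver library for 27.8% of all tested genes. The part of that library in their values was not tested. GSTT1L, a theta-class transferase, was at 7.73, 6.42 and 4.90 CPM in G1721, G1723 and G1725 and at 21.8, 9.75 and 18.6 CPM in G1724, G6709 and G6710. Its groups did not overlap, as for 19 of the 59 list genes and for 21.2% of all genes tested in liver. That share among genes with a symbol is not given here, so nothing is read from the count. The log2 fold change of GSTT1L was -1.39 (SE 0.32), with FDR = 0.324 by edgeR's quasi-likelihood test, 0.013 by DESeq2 and 0.015 by the likelihood ratio test. AKR7A2, an aldo-keto reductase of aldehydes, averaged 149.6 CPM ± 11.7 against 231 CPM ± 19.7 (FDR = 0.324 by quasi-likelihood and 0.047 by DESeq2). CYP27A1, the sterol 27-hydroxylase, averaged 200.3 CPM ± 32.6 against 375 CPM ± 112 (FDR = 0.324 and 0.072). AHR, the receptor that drives CYP1A genes, was named after its values were seen. It was at 83.3 to 152 CPM in ad libitum livers and 69.3 to 90.0 CPM in restricted livers. The log2 fold change was 0.67 (SE 0.25, FDR = 0.337 by quasi-likelihood). Its highest liver was G1725, at 152 CPM, which was also the highest ad libitum liver for both CYP1A genes. G6710, the highest liver for both CYP1A genes, was the highest restricted liver for AHR, at 90.0 CPM. G1723, at 132 CPM of AHR, was the lowest liver for CYP1A1. A relation of AHR to the CYP1A genes was not tested.

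In adipose 10 of 56 list genes had an unadjusted p under 0.05, 4 higher and 6 lower, with a median of 0.03 against 0.01 over all tested genes. UGT1A1, which in mammals glucuronidates bilirubin, was at 0.584, 0.120 and 0.272 CPM in the ad libitum hens and at 1.62, 1.37 and 1.88 CPM in the restricted hens, -2.25 on the log2 scale (SE 0.55, FDR = 0.890 by edgeR's quasi-likelihood test). The gene passed the filter through its restricted libraries alone, where it was higher, and F1723 was below the level of 3 counts. Its p, its rank and its separation are therefore a description. The same holds for CYP24A1, also among the 6 lower, at 0.217 to 0.673 CPM against 1.05 to 2.08 CPM. It too passed through its restricted libraries alone. UGT1A1 averaged 206 and 232 CPM in the livers of the 2 groups, and in adipose F6710 and F1724, the highest for it, were also the highest for the liver cell markers, at 1389 and 705 CPM, and F1723 was the lowest for both. The part of liver RNA in its adipose values was not tested. ABCC6, an ABC transporter, averaged 34.4 CPM ± 1.32 against 20.3 CPM ± 3.65, and CYP39A1, an oxysterol hydroxylase, 35.2 CPM ± 6.32 against 21.9 CPM ± 3.15. UGT1A1, ABCC6 and CYP39A1 were named for the smallest p of the list genes, and their groups did not overlap. Groups did not overlap for 9 of the 56 list genes and for 8.77% of all tested genes in adipose, with or without a symbol. The share among genes with a symbol is not given here, so no excess is read from these counts. F6709 was the highest library for none of UGT1A1, ABCC6 and CYP39A1.

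In ovary 7 of 55 list genes had an unadjusted p under 0.05, all higher with ad libitum feeding, and 38 of 55 values were positive, with a median of 0.21. Of all genes tested in ovary, with or without a symbol, 47.8% were positive, with a median of -0.02. HPGDS, the hematopoietic prostaglandin D synthase, which belongs to the glutathione transferases, was at 79.4, 98.9 and 111 CPM in M1721, M1723 and M1725 and at 68.7, 57.9 and 40.0 CPM in M1724, M6709 and M6710. Its log2 fold change was 0.80 (SE 0.24, FDR = 0.878 by edgeR's quasi-likelihood test). CYP4V2, a fatty acid hydroxylase, averaged 14.2 CPM ± 1.44 against 6.34 CPM ± 2.91, and UGT2A1, a glucuronosyltransferase, 1.55 CPM ± 0.787 against 0.471 CPM ± 0.310. All 3 were highest in M1725 and lowest in M6710, as were GSTA3 and the macrophage markers, whose part in these values was not tested. UGT2A1, at 1.02 to 2.45 CPM against 0.251 to 0.825 CPM, passed the filter through its ad libitum libraries alone, where it was higher. Its place among the 7 is therefore a description.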

How the data were processed

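Members and gene lists were chosen with earlier results of these data known. The authors sequenced paired-end mRNA libraries; per the labels the tools were CASAVA 1.8, TopHat2 2.1.1, Bowtie2 2.0.6 and edgeR, with mapping to Gallus_gallus-5.0, and the counting mode was not given in the sources used here. The deposited values are raw read counts per gene for 18 libraries. Symbols covered 5824 of the 17108 genes; CYP2H1 is printed under its name in the list of tissue-specific genes, the other members under that in the list of feeding differences.

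Within each tissue, counts were filtered (more than 1 CPM in every library of at least 1 feeding group), scaled by TMM and fitted with edgeR 4.0.16 (quasi-likelihood F test, Benjamini-Hochberg FDR under 0.1, R 4.3.3). A standard error is the log2 fold change divided by the square root of F. Tissue differences and interactions used a fit of 6 groups over 18 libraries, with the hen as a block as alternative. The same hens gave the 3 tissues (labels); mean correlations of their deviations were 0.04, -0.02 and 0.16 for adipose with liver, ovary with liver and adipose with ovary. Alternatives were DESeq2 1.42.0, a likelihood ratio test with gene-wise dispersions, RLE size factors, no filter and leaving out each hen. Profiles used log2(CPM + 0.5). From the other lists the text names the 3 genes with the smallest p in each tissue. The scripts were checked on simulated counts. P-values of the feeding contrasts within a tissue measure the spread between hens, with 3 per group. Without the block, the fit over 18 libraries treated the 3 libraries of a hen as independent. With the block it used the spread within hens.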

Additional observations from a re-analysis of the deposited data

How the results depend on the processing

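The number of genes called in a feeding contrast depended on the test: DESeq2 called 78, 241 and 48 and the likelihood ratio test 88, 146 and 24 in adipose, liver and ovary, where the quasi-likelihood test called 1, 1 and 0; the cause was not tested. Leaving out each hen gave 0 to 6 in adipose and 0 to 104 in liver, the highest both times without the hen of F6709, and 0 in ovary. RLE size factors and no filter changed no call of a member in a feeding contrast.

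Leaving out each hen changed the sign of these log2 fold changes, with ranges of -4.35 to 0.56 for GSTA4, -0.55 to 2.098 for GSTA3, -0.70 to 0.13 for CYP1A2 and -0.78 to 1.52 for CYP1A1 in adipose; -0.55 to 0.20 for CYP2H1, -0.92 to 0.23 for CYP1A2, -0.89 to 0.13 for CYP1A1, -0.29 to 0.13 for GSTA3, -0.74 to 1.32 for ALDH1A3 and -1.39 to 1.04 for CYP1C1 in liver; and -0.093 to 0.34 for EPHX1L and -0.51 to 1.49 for CYP1C1 in ovary. None of these was called. The fits of CYP1C1, CYP1A1, CYP1A2 and CYP2C45 with no filter and each hen left out, library size alone and the tissue fit without F6709 were chosen after seeing the data.

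With the hen as a block, all called tissue differences of members were called again, and 3 uncalled values changed sign: adipose against ovary for GSTA4 (-0.47) and GSTA3 (-0.046), and the adipose against liver interaction of CYP1A2 (-0.020). With library size alone, adipose against ovary turned to -0.010 for CYP2H1, -0.37 for GSTA4, -0.19 for GSTA3, -0.19 for EPHX1L and -0.043 for ALDH1A3, and calls were higher in adipose than in liver for 87.9% of called genes against 55.8% with TMM, and higher in ovary than in liver for 90.3% against 55.3%. Without F6709 adipose against ovary was -1.27 for GSTA4 and -0.52 for GSTA3. Low counts limit CYP1C1 in liver, with 3 or fewer in 5 of 6 libraries, and CYP1A2, with 14 or fewer in every ovary library.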
